A study of Mus musculus with 37 samples.

Results

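The 10 genes described here encode regulators of pluripotency and of the first lineages of the mouse embryo: Pou5f1, Sall4, Dppa2, Dppa4, Klf4, Klf5, Klf17, Nr5a2, Yap1 and Tead4. They were picked by gene symbol out of 29294 symbols listed in 4 RNA-seq tables. No measured value entered the rule, but the list was chosen with earlier results of these data known. The tables of ZH GV oocytes and of CabZ 2-cell embryos list all 10. Klf5 is not listed for CabZ GV oocytes and Tead4 is not listed for the injected embryos, so these tables hold 9.

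The study asked what the H3.3 chaperone complex of Hira, Cabin1 and Ubn1 does in the oocyte. Zp3-Cre, which is active in growing oocytes, was used to delete exons 6 and 7 of a floxed Hira allele (the ZH line) or exon 6 of a floxed Cabin1 allele (the CabZ line) on a C57BL/6 background. KO oocytes came from flox/flox females and Het oocytes from flox/+ littermates, and both carried Zp3-Cre, so that the Het controls had also lost 1 copy of the gene in the oocyte. There were 4 libraries in each of 6 groups, namely fully grown GV (germinal vesicle) oocytes of Het or KO females of either line and 2-cell embryos made from Het or KO oocytes of the CabZ line. Females were superovulated. Separately, RNA for Zscan4d or GFP was injected into wild-type GV oocytes, which were matured in vitro and activated without sperm, and 2-cell embryos were sequenced in 3 libraries labelled Zscan4 OE and 4 labelled GFP. The methods describe 10 pooled oocytes for a library, whereas the labels describe individual cells, and animal ages and the parents of single libraries are not given. The p-values therefore measure the spread between libraries, which may be in part technical. Whether the CabZ 2-cell embryos were fertilised or activated is not given in the sources used here. ATAC-seq peaks of CabZ GV oocytes were available for 3 Het and 3 KO libraries.

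Pou5f1 (Oct4), Sall4, Klf4 and Nr5a2 are transcription factors that act on genes of pluripotent cells, and Pou5f1 and Sall4 are also present in oocytes. Dppa2 and Dppa4 are neighbouring genes whose SAP-domain proteins bind each other and are known as activators of 2-cell-stage genes in embryonic stem cells. Klf5 and Klf17 are further Kruppel-like zinc finger factors of the early embryo, and Yap1 is the co-activator through which the Hippo pathway acts on Tead4, the DNA-binding factor that starts the trophectoderm programme.

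Promoter sequences in RefSeq (GRCm38.p6) were matched for 5 of the 10 genes (Pou5f1, Klf4, Klf17, Nr5a2 and Yap1). Sall4, Klf5, Tead4, Dppa2 and Dppa4 had no entry. Of these, 3 are printed as the 250 bases before the start site: Pou5f1, where ATAC-seq peaks were found, and Klf4 and Klf17, of which one rose and the other fell in ZH KO oocytes. Capitals mark every match, on either strand, to 4 short motifs: GGGCGG (the GC box of Kruppel-like and Sp factors), ATGCAAA (a core of the octamer of POU factors), AAGGTCA (a binding site of the Nr5a family) and GGAATG (the core of the TEAD site). The Pou5f1 promoter lies on the plus strand at chr17:35505782-35506031, and those of Klf4 and Klf17 lie on the minus strand at chr4:55532476-55532725 and chr4:117765667-117765916.
Pou5f1: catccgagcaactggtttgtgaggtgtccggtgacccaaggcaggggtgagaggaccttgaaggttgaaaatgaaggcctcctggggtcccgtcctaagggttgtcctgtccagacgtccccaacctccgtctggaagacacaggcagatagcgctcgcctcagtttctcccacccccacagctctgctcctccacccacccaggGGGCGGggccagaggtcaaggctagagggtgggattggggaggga
Klf4: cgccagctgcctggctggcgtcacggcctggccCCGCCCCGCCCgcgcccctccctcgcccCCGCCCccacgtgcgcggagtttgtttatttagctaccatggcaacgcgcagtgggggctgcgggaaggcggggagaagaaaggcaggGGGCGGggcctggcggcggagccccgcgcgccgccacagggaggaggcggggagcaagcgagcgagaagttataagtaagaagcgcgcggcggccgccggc
Klf17: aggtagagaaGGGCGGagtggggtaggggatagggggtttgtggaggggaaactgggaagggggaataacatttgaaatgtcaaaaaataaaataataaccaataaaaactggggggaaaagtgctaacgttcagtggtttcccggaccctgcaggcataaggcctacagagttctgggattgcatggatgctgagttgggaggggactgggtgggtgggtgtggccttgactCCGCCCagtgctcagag

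The Pou5f1 window held 1 GC box, that of Klf4 held 4, of which a pair overlap, and that of Klf17 held 2, while none of the 3 held one of the other motifs. A GC box was present in 32.7% of 32851 RefSeq promoter windows of this length, ATGCAAA in 4.12%, AAGGTCA in 4.08% and GGAATG in 12.6%. The GC content was 74.0% for Klf4, 62.0% for Pou5f1 and 52.0% for Klf17. The window of Yap1 held 2 GC boxes and 1 GGAATG, 1 of 2 Nr5a2 windows held a GGAATG, and a second window of Pou5f1, within the gene, held none of the motifs. Such matches describe the letters only. Variants of the 4 motifs were not searched, so that a window without a match may still hold a binding site.

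Between 5813087 and 21854361 reads per library lay on listed genes, and levels are given below as CPM, the reads of a gene scaled to a library total. For the CabZ line this total was the reads on listed genes. For the ZH line and the injected embryos it was the total used by the authors. Listed genes held 74.2 to 74.7% of that total in ZH Het and 66.0 to 68.2% in ZH KO. A pooled library cannot tell fewer expressing cells from less RNA per cell. In the check of the targeted genes, Cabin1 lay at 1.48 to 5.70 CPM in CabZ KO GV oocytes against 10.5 to 18.8 in Het, and at 7.56 to 21.4 against 27.1 to 53.8 in 2-cell embryos (two-sided exact permutation p = 0.0286 in both). It was also lower in ZH KO oocytes, at 7.57 to 12.1 against 30.6 to 40.9 CPM. Hira lay at 0 to 0.810 CPM in ZH KO and 0.0984 to 1.09 CPM in ZH Het, which overlapped, so that these reads checked nothing. Zscan4d lay at 336 to 403 CPM in the libraries labelled Zscan4 OE and 332 to 711 in those labelled GFP, so that no surplus of Zscan4d reads was seen in the former, and reads of the Zscan4 family may be split between near-identical copies. These reads come from 2-cell embryos. The paper reported more Zscan4 after injection than in uninjected controls, by qRT-PCR, immunofluorescence and western blot. Of 16 oocyte markers, among them Gdf9, Bmp15 and the zona pellucida genes, 15 are listed, and these averaged at least 1 CPM in the GV groups of both lines. The same 15 did so in both groups of CabZ 2-cell embryos, so that this limit cannot tell oocytes from embryos.

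In ZH GV oocytes, Klf4 and Dppa2 rose and Dppa4, Klf17, Sall4 and Yap1 fell, whereas Pou5f1 and Nr5a2 did not pass the test. Thus 2 of the 8 genes that had a mean of at least 1 CPM rose and 4 fell (limma, adjusted p under 0.05), beside 27.4% of 13709 genes tested that rose and 26.3% that fell. The count that rose is thus near the share of all genes. Het and KO did not overlap for 5 of the 8 genes, beside 47.6% of all genes tested. The median log2 fold change was -0.58 over the 8 genes and -0.04 over all genes. Higher genes made up 51.0% of all calls, and 62.0% or 62.4% when libraries were scaled to the reads of the table or to their median, where the median of all genes was 0.12 or 0.14. No member changed direction with the scaling.

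Dppa4 (chr16:48283735-48294292) showed the smallest p of the list. Its level was 15.3, 19.0, 14.8 and 16.9 CPM in the ZH Het libraries 1 to 4 and 3.41, 4.99, 3.37 and 5.51 CPM in ZH KO 1 to 4. Every KO library lay under every Het library, and the log2 fold change on the log2(CPM + 1) scale used throughout was -1.73 ± 0.19 (SE; limma adjusted p = 4.22e-05). Dppa2, its neighbour on the same strand (chr16:48310477-48319723), went the other way. It measured 71.3, 80.1, 81.5 and 74.3 CPM in Het and 93.7, 122, 134 and 181 CPM in KO. The groups did not overlap, and the log2 fold change was 0.74 ± 0.21 (limma adjusted p = 0.0111).

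The Kruppel-like factors were split. Klf4 (chr4:55527143-55532466) was near the filter in Het, at 1.94, 1.87, 1.27 and 1.03 CPM, which is 21 to 27 reads. In KO it reached 6.03, 6.60, 13.8 and 4.62 CPM, so that every KO library exceeded every Het library, and the mean was 5.08-fold higher (log2 fold change 1.71 ± 0.28; limma adjusted p = 5.90e-04). Klf17 (chr4:117757836-117765648) was abundant in Het, at 343, 368, 316 and 217 CPM. In KO it ranged widely, at 29.2, 240, 168 and 66.4 CPM, and KO library 2 overlapped Het library 4. Its log2 fold change was -1.68 ± 0.54 (limma adjusted p = 0.0213), and the call was lost without Het library 1, Het library 2 or KO library 4 (limma adjusted p = 0.0520, 0.0574 and 0.0588) and when no filter on low values was used (0.0606). Klf5 (chr14:99298691-99315036) was represented by 1 to 4 reads in each Het library and by 1 read in a single KO library. This is too few for the main test, and an exact permutation test of the 4 against 4 libraries gave p = 0.0571 (two-sided, where 0.0286 is the smallest p possible).

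Of the pluripotency factors proper, Sall4 (chr2:168748332-168767943) fell. It measured 66.4, 62.5, 93.5 and 72.7 CPM in ZH Het and 27.0, 43.3, 42.7 and 34.8 CPM in ZH KO. The groups were separate and the log2 fold change was -0.98 ± 0.21 (limma adjusted p = 0.00251). Pou5f1 (chr17:35506018-35510772) measured 18.1, 12.7, 13.8 and 10.4 CPM in Het and 7.24, 29.1, 5.58 and 6.53 CPM in KO. KO library 2 stood above all other libraries of the line, and the other 3 KO libraries stood under all Het libraries. The log2 fold change of -0.46 ± 0.42 did not pass (limma adjusted p = 0.371), but without KO library 2 it was -0.97 (limma adjusted p = 0.00296). The same library also had the highest Klf17 level among KO libraries, 240 CPM.

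Yap1 (chr9:7931999-8004596) measured 30.4, 21.7, 27.0 and 21.6 CPM in ZH Het and 12.1, 17.1, 18.1 and 13.3 CPM in ZH KO, again without overlap, and fell with a log2 fold change of -0.70 ± 0.19 (limma adjusted p = 0.0109). Its partner Tead4 (chr6:128224288-128300823) had 0 to 3 reads in Het and 2 to 17 reads in KO, which were 0.0575 ± 0.0855 and 0.571 ± 0.474 CPM (SD, n = 4; two-sided exact permutation p = 0.0571). Nr5a2 (chr1:136842571-136960448) lay at 11.2 ± 1.51 CPM in Het and 13.2 ± 1.86 CPM in KO (SD, n = 4), with overlapping groups (log2 fold change 0.22 ± 0.17; limma adjusted p = 0.298).

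Other markers moved with the genotype in these libraries. The summed level of the 15 oocyte markers was 11586 to 19726 CPM in ZH KO and 23989 to 25667 CPM in ZH Het, and 8 of the 15 fell and 1 rose. Markers of the 2-cell stage went the other way, with 10 of 12 rising and sums of 1503 to 2072 CPM in KO and 729 to 807 CPM in Het. Of the 12, Usp17la and Usp17lc passed the filter only through KO (3.76 and 33.5 CPM, against 0 and 0.161 in Het). Over all genes tested 27.4% rose and 26.3% fell. Of 6 granulosa and cumulus markers tested 4 rose, Fshr, Inha, Ptgs2 and Hsd3b1, of which the last 3 passed the filter only through their level in KO, and the sum of the list was 31.0 to 62.5 CPM in KO and 30.3 to 36.01 CPM in Het. Of the 18 listed, 2 were at 0 in every KO library (Foxl2 and Has2) and 3 in every Het library (Amhr2, Inhbb and Ptx3), and Amh is not listed. Fshr was at 7.52 CPM in KO and 1.04 CPM in Het, and Cyp19a1 at 25.6 and 26.4 CPM. Of 2 blood and stromal markers tested Cd68 rose and Pecam1 fell, with sums of 8.08 to 19.7 CPM in KO and 22.3 to 25.2 CPM in Het. The part of these in the results above was not tested.

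**Figure D1:**
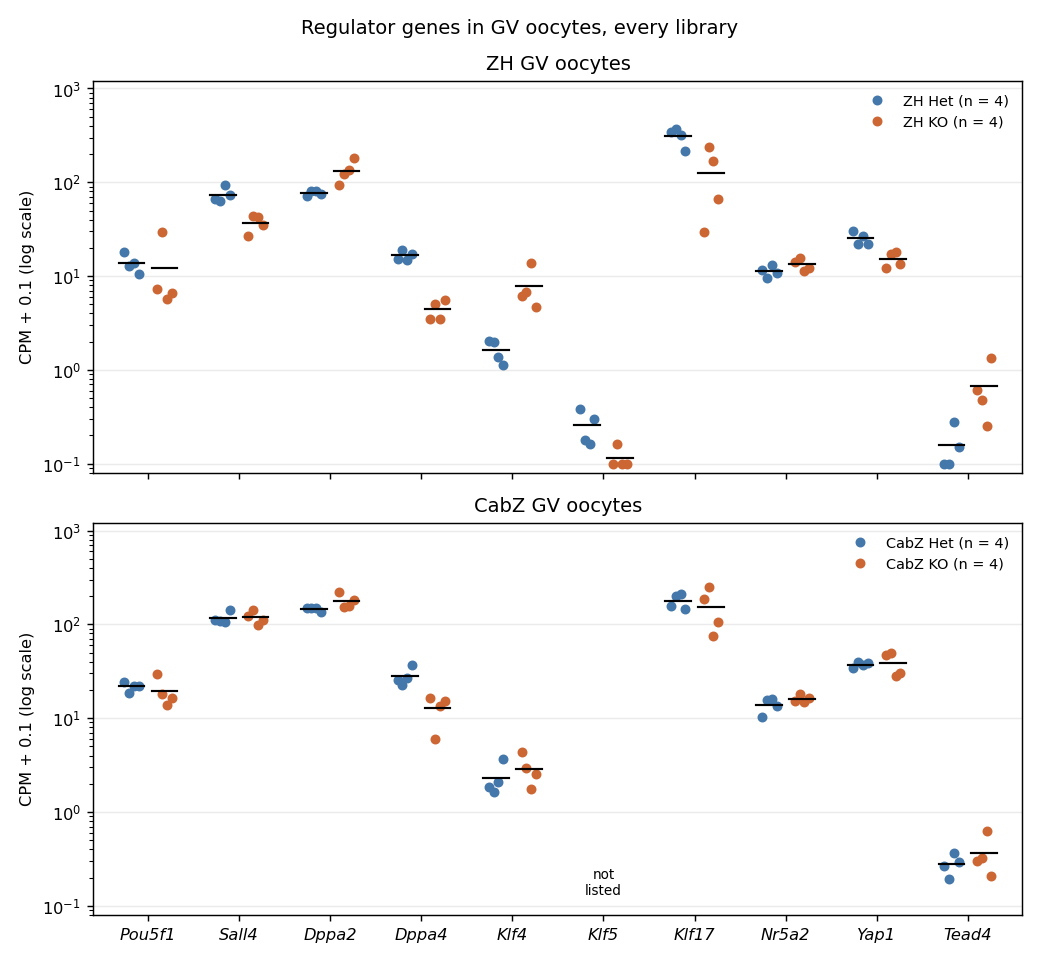
Level of the 10 regulator genes in every GV oocyte library (CPM with 0.1 added, log scale), ZH line above and CabZ line below, with Het in blue, KO in orange and the mean as a line. Dppa4 is lower in every KO library of both lines, and Klf4 is higher in every KO library of the ZH line, whereas its CabZ groups overlap.

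In CabZ GV oocytes, Dppa4 was the single gene of the list to pass, and it fell. None of the 8 genes tested rose and 1 fell, beside 9.31% of 13589 genes that rose and 5.55% that fell. Het and KO did not overlap for 2 of the 8, beside 20.4% of all genes tested. Dppa4 measured 25.5, 22.6, 26.5 and 36.8 CPM in CabZ Het 1 to 4 and 16.3, 5.96, 13.5 and 15.3 CPM in CabZ KO 1 to 4. The groups did not overlap, and the log2 fold change was -1.13 ± 0.28 (limma adjusted p = 0.0180). Without Het library 4, the highest, it was -0.99 and just missed the threshold (limma adjusted p = 0.0550).

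Dppa2 was 149, 150, 150 and 135 CPM in CabZ Het and 222, 152, 156 and 183 CPM in CabZ KO. All KO libraries were above all Het libraries, but the log2 fold change of 0.27 ± 0.16 did not pass (limma adjusted p = 0.313). The remaining 6 genes tested had log2 fold changes between -0.35 (Klf17) and 0.24 (Klf4), each with overlapping groups and limma adjusted p of at least 0.421. Sall4 lay at 116 ± 17.2 CPM in Het and 118 ± 18.8 CPM in KO, Pou5f1 at 21.7 ± 2.46 and 19.5 ± 7.03, Klf4 at 2.21 ± 0.914 and 2.80 ± 1.11, and Klf17 at 178 ± 32.0 and 154 ± 79.0 CPM (SD, n = 4 for each). The KO libraries of Klf17 again ranged widely, from 74.4 to 249 CPM. Yap1 lay at 37.1 ± 2.44 CPM in Het and 38.6 ± 10.8 in KO, and Nr5a2 at 13.7 ± 2.56 and 16.0 ± 1.54 CPM (SD, n = 4). Tead4 had 1 to 5 reads in every library (two-sided exact permutation p = 0.514). None of 15 oocyte markers passed (limma, 2 at an unadjusted p under 0.05), with sums of 24032 to 27522 CPM in KO and 27347 to 34698 in Het. At that unadjusted limit stood 27.6% of all genes. Of 10 markers of the 2-cell stage 5 rose, with sums of 1372 to 1529 CPM in KO and 1126 to 1250 CPM in Het. Of the 10, Ddit4l passed the filter only through KO, at 1.92 CPM against 0.732 in Het. Over all genes tested 9.31% rose. Of 3 granulosa and cumulus markers tested Fshr and Kitl rose, and the sum of the 9 listed was 84.5 to 129 CPM in KO against 43.3 to 58.6 in Het. Fshr passed the filter only through KO, at 41.0 CPM against 0.946 in Het, and Kitl was at 7.71 and 3.78 CPM. Cyp19a1, which did not pass, was at 57.1 and 41.9 CPM. Of the listed markers under the filter, Star, Inha, Has2 and Cyp11a1 were lower in KO, and Inhba and Ptgs2 were higher. Neither of 2 blood and stromal markers passed (limma, 0 at an unadjusted p under 0.05). Mitochondrial genes took 0.187 to 0.342% of reads in KO and 0.391 to 0.474% in Het. The part of these in the fall of Dppa4 was not tested. No difference between the lines was tested, since their tables were normalised apart.

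All 10 genes of the list were tested in the 2-cell embryos of the CabZ line, against 8 in the GV oocytes of each line. In these embryos 44.7% of all genes tested passed in either direction, against 53.7% in ZH GV oocytes. Dppa4, Klf5, Dppa2, Nr5a2, Tead4, Klf17 and Sall4 fell and Pou5f1 rose, so that 7 of 10 genes fell and 1 rose, beside 19.2% of 17530 genes that fell and 25.5% that rose. The median log2 fold change was -0.96 over the 10 genes and 0.18 over all genes tested. Het and KO did not overlap for 6 of the 10, beside 40.4% of all genes tested. Dppa4, Klf5, Dppa2 and Pou5f1 kept their call when any 1 library was left out, whereas Sall4, Tead4, Klf17 and Nr5a2 did not.

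Dppa4 reached its highest levels here, at 349, 518, 487 and 366 CPM in CabZ Het 1 to 4. In CabZ KO 1 to 4 it was 101, 102, 128 and 39.1 CPM, so that the mean was 4.65-fold lower than in Het (log2 fold change -2.31 ± 0.38; limma adjusted p = 0.00134). Dppa2 was 186, 243, 269 and 215 CPM in Het and 95.5, 118, 125 and 61.4 CPM in KO (log2 fold change -1.22 ± 0.31; limma adjusted p = 0.00937). Neither gene had overlapping groups, and KO library 4 was the lowest for both.

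Klf5 was 55.7, 47.8, 38.1 and 48.8 CPM in Het and 16.8, 18.7, 3.32 and 4.12 CPM in KO. All KO libraries were under all Het libraries, but they fell into a higher and a lower pair. The log2 fold change was -2.36 ± 0.50 (limma adjusted p = 0.00428). Klf17 was 82.6, 101, 75.2 and 119 CPM in Het and 44.8, 46.9, 51.3 and 71.0 CPM in KO, without overlap (log2 fold change -0.81 ± 0.29; limma adjusted p = 0.0401). Klf4 was 69.5, 53.9, 40.2 and 73.9 CPM in Het and 51.5, 43.3, 25.4 and 20.1 CPM in KO. Its groups overlapped and its log2 fold change of -0.80 ± 0.36 did not pass (limma adjusted p = 0.0966).

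Nr5a2 was 54.2, 66.2, 37.5 and 37.6 CPM in Het and 21.0, 22.3, 31.9 and 14.4 CPM in KO, without overlap (log2 fold change -1.10 ± 0.33; limma adjusted p = 0.0203). Without Het library 2 the change was -0.94 and missed the threshold (limma adjusted p = 0.0606). Tead4 was 2.89, 3.65, 5.63 and 10.4 CPM in Het. In KO library 1 it was 5.82 CPM, as high as in Het, and in KO libraries 2 to 4 it was 0.641, 0.315 and 0.519 CPM, which is 2 to 4 reads. The log2 fold change was -1.49 ± 0.55 (limma adjusted p = 0.0464). Yap1 did not pass, at 81.2 ± 4.11 CPM in Het and 66.2 ± 14.5 CPM in KO (SD, n = 4; log2 fold change -0.32 ± 0.27; limma adjusted p = 0.362).

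Sall4 was 47.0, 44.2, 37.5 and 55.1 CPM in Het and 23.1, 21.2, 20.9 and 40.9 CPM in KO, where library 4 overlapped Het. Its log2 fold change of -0.81 ± 0.30 only just passed (limma adjusted p = 0.0496). Pou5f1 was the exception in direction. It was 5.91, 7.80, 9.90 and 9.10 CPM in Het and 17.1, 22.8, 12.01 and 21.1 CPM in KO, so that every KO library was above every Het library (log2 fold change 1.05 ± 0.30; limma adjusted p = 0.0166).

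Single libraries and settings decided the weaker calls. The call of Sall4 was lost without any 1 of the Het libraries or of KO libraries 1 to 3, with limma adjusted p of up to 0.119, and held without KO library 4 (limma adjusted p = 0.0159). That of Tead4 was lost without Het library 2, 3 or 4 or KO library 2, 3 or 4 (up to 0.116) and held without KO library 1 (limma adjusted p = 0.00457). Klf17 lost its call without Het library 2 or 4 or KO library 1, 2 or 3 (up to 0.0980). Sall4 and Klf17 also lost theirs with median scaling (limma adjusted p = 0.106 and 0.0793), under which the median of all genes was 0.30, and with quantile normalisation (0.103 and 0.0884), under which it was 0.00. Sall4 and Tead4 lost theirs without a filter (0.0582 and 0.0525) and at a pseudocount of 0.1 CPM (0.0605 and 0.0584), and Tead4 also at 5 CPM (0.0746).

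RNAs of the oocyte moved in the same embryos. Of 15 oocyte markers 12 rose in CabZ KO, with sums of 4995 to 8724 CPM against 2030 to 3391 CPM in CabZ Het. Over all genes tested 25.5% rose and 19.2% fell. Of 15 markers of the 2-cell stage 3 rose and 4 fell, with sums of 2292 to 6725 CPM in KO and 2577 to 4641 CPM in Het. Among the 15, Duxf3 passed the filter only through KO, at 6.35 CPM against 0.621 in Het. Mitochondrial genes took 2.48 to 5.09% of reads in KO and 8.99 to 12.9% in Het. When the libraries were scaled to nuclear genes alone, 8 of the 10 genes still passed, beside 7757 of 17798 genes tested. Of 8 granulosa and cumulus markers tested 5 rose and 1 fell, with sums of 75.0 to 130 CPM in KO and 45.5 to 93.3 in Het, and of 5 blood and stromal markers 4 rose, with sums of 128 to 212 against 88.8 to 121 CPM. Fshr was at 10.6 CPM in KO and at 0 in every Het library, Kitl at 29.0 and 7.63 CPM, and Foxl2 at 0.813 and 0.912 CPM. Amhr2, the granulosa marker that fell, was at 4.57 CPM in KO and 17.3 in Het. Fshr, Fst, Wt1 and the stromal marker Col1a1 passed the filter only through KO. Of markers under the filter, Ptgs2 and Has2 were among the lower and Cyp11a1 and Ptx3 among the higher in KO. The part of these in the results for the 10 genes was not tested.

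**Figure D2:**
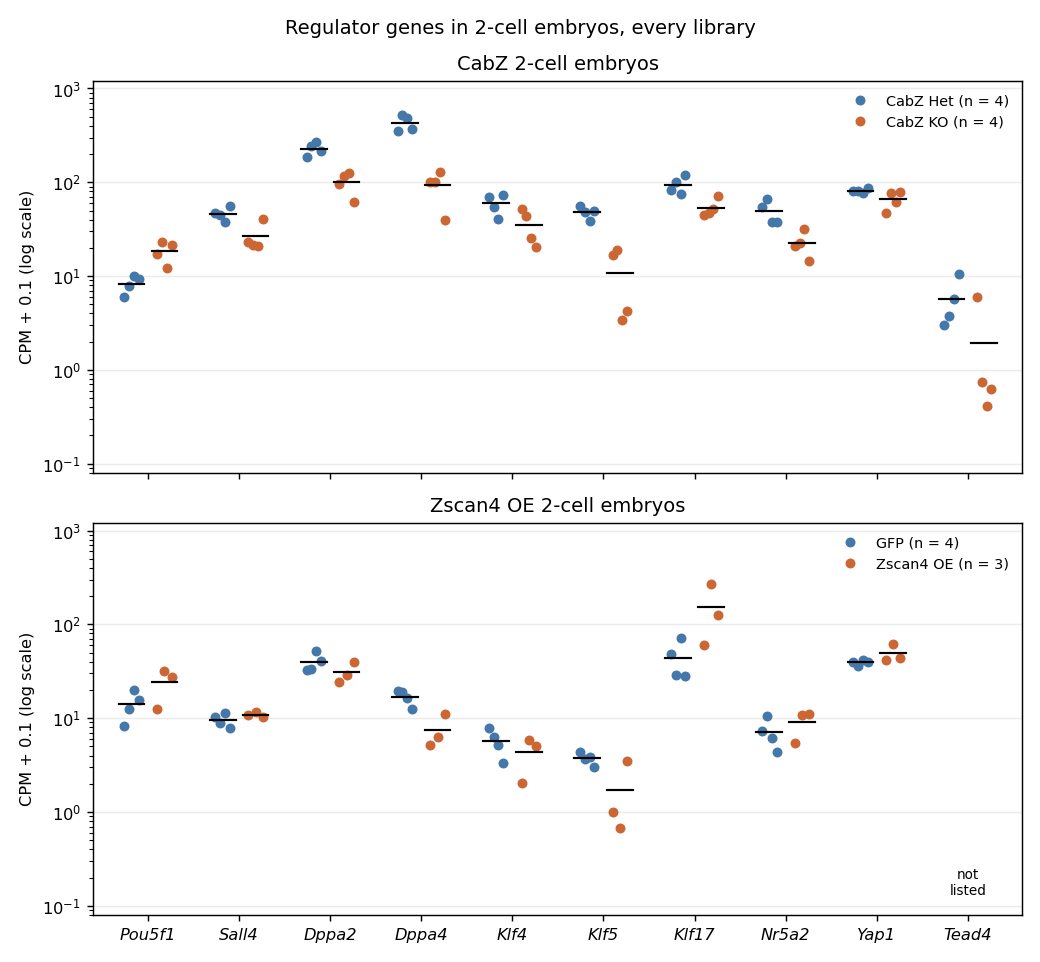
Level of the 10 regulator genes in every 2-cell library (CPM with 0.1 added, log scale), CabZ line above and injected embryos below, with controls in blue, KO or Zscan4 OE in orange and the mean as a line. In the CabZ line 7 of the 10 genes fell and Pou5f1 rose, and in KO libraries 2 to 4 Tead4 is under 1 CPM.

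In the libraries labelled Zscan4 OE none of the 9 genes listed passed (limma, 3 at an unadjusted p under 0.05), beside 0.736% of 11550 genes that did in either direction. At that unadjusted limit stood 16.5% of all genes. The 3 genes of the list under it were Dppa4, Klf17 and Klf5. Dppa4 was 5.02, 6.16 and 11.1 CPM in Zscan4 OE A to C and 19.3, 18.8, 16.2 and 12.3 CPM in GFP A to D. The groups did not overlap, with a log2 fold change of -1.11 ± 0.29 (limma adjusted p = 0.127). Non-overlapping groups were also seen for Yap1, at 41.8 to 61.1 CPM against 35.9 to 41.5 CPM (log2 fold change 0.29 ± 0.23; limma adjusted p = 0.540). Thus 2 of 9 genes had separate groups, beside 14.9% of all genes tested.

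Klf17 was 59.5, 271 and 126 CPM in Zscan4 OE and 48.0, 28.4, 72.2 and 28.0 CPM in GFP. Its mean was 3.45-fold higher, but Zscan4 OE library A lay within the GFP range (log2 fold change 1.61 ± 0.48; limma adjusted p = 0.158). Klf5 was 0.900, 0.580 and 3.37 CPM in Zscan4 OE and 4.26, 3.59, 3.77 and 2.89 CPM in GFP (log2 fold change -0.96 ± 0.34; limma adjusted p = 0.207), and without Zscan4 OE library C it passed, at -1.41 (limma adjusted p = 0.0409). Pou5f1 was 12.6, 32.0 and 27.6 CPM in Zscan4 OE and 8.19, 12.4, 19.9 and 15.3 CPM in GFP (log2 fold change 0.71 ± 0.37; limma adjusted p = 0.361). Sall4, Nr5a2, Klf4 and Dppa2 had log2 fold changes between -0.36 and 0.33, with overlapping groups. The sum of the 2-cell markers was 1174 to 2410 CPM in Zscan4 OE and 2506 to 3779 in GFP. None of 15 passed (limma, 7 at an unadjusted p under 0.05), beside 16.5% of all genes at that unadjusted limit.

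**Figure D3:**
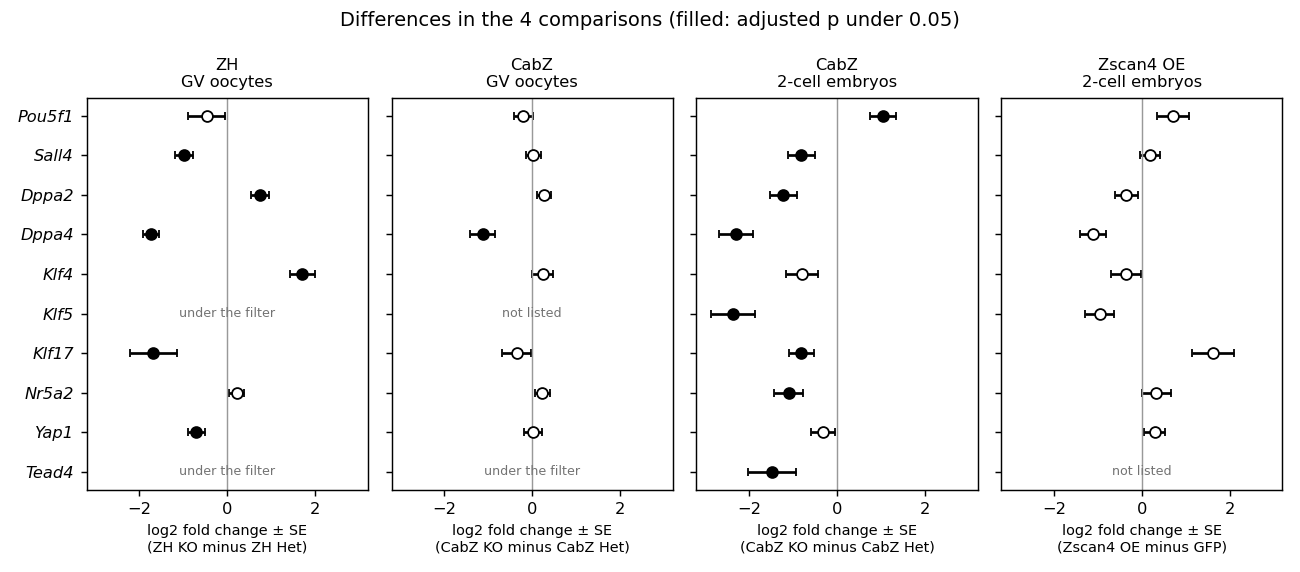
Log2 fold change ± SE of the 10 genes on the log2(CPM + 1) scale in the 4 comparisons, with filled circles where the limma adjusted p was under 0.05. Dppa4 lies left of 0 in all 4 panels, from -2.31 in CabZ 2-cell embryos to -1.11 in the injected embryos, and Pou5f1 is filled only in the CabZ 2-cell panel, at 1.05.

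The GV and 2-cell tables of the CabZ line were set side by side after scaling to the 17958 genes that both list, without a test, since each table had been normalised apart. A gene was counted when its mean differed over 2-fold and no library of one stage reached the other. In CabZ Het 5 of 9 genes were higher in 2-cell embryos (Klf4, Dppa4, Tead4, Nr5a2 and Yap1) and 2 were lower (Pou5f1 and Sall4), beside 25.2% of 15176 genes higher and 28.1% lower. Klf4 went from 2.21 ± 0.914 to 60.7 ± 15.7 CPM, a 27.5-fold difference. Dppa4 went from 27.8 ± 6.20 to 440 ± 87.5 CPM, which is 15.8-fold. Tead4, at 1 to 3 reads in GV libraries, was at 5.79 ± 3.47 CPM in 2-cell embryos (SD, n = 4 for each), and Nr5a2 was 3.66-fold and Yap1 2.24-fold higher. Genes compared had a mean of at least 1 CPM, which Tead4 reached only through its 2-cell level, so that it could only count as higher.

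Against these, Pou5f1 was 21.7 ± 2.46 CPM in GV oocytes and 8.37 ± 1.79 in 2-cell embryos, and Sall4 was 116 ± 17.2 and 47.0 ± 7.47 CPM. Klf17 (179 ± 32.0 and 96.6 ± 20.2 CPM) and Dppa2 (146 ± 7.56 and 234 ± 37.0 CPM; SD, n = 4) differed by less than 2-fold, although their stages did not overlap.

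In CabZ KO, 2 of the 9 genes were counted as higher (Klf4 and Dppa4) and 2 as lower (Sall4 and Klf17), beside 25.3% of all genes higher and 21.8% lower. Dppa4 was 7.40-fold higher in KO 2-cell embryos than in KO oocytes, and Klf4 12.8-fold. Nr5a2, Tead4 and Yap1 overlapped between the stages. So did Pou5f1, at 19.5 ± 7.03 and 18.6 ± 4.92 CPM. Dppa2, which was higher at the 2-cell stage in Het, was lower in KO, at 178 ± 32.4 and 102 ± 29.3 CPM (SD, n = 4). Whether the stage difference depends on genotype was not tested.

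**Figure D4:**
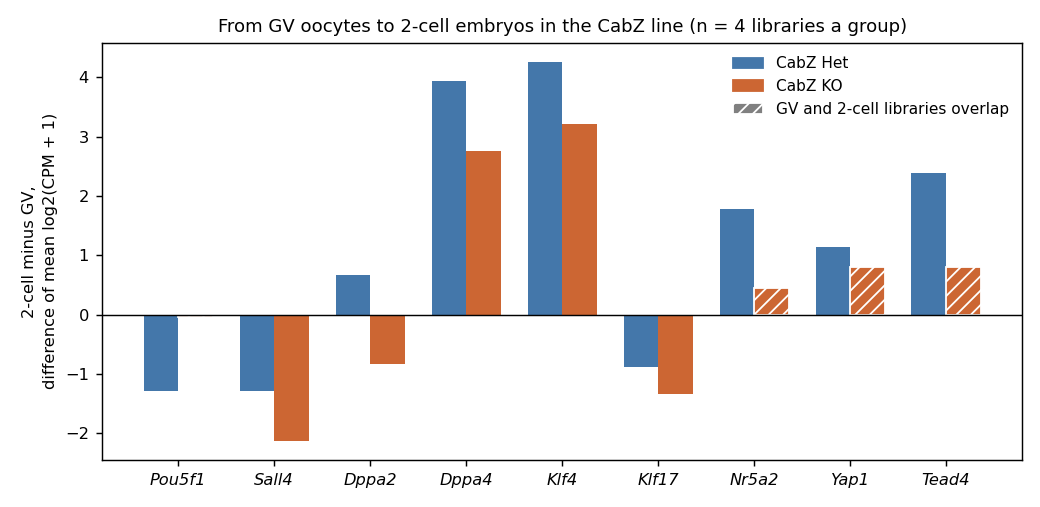
Difference of mean log2(CPM + 1) between 2-cell embryos and GV oocytes of the CabZ line for the 9 genes in both tables, Het in blue and KO in orange (4 libraries a group), hatched where GV and 2-cell libraries overlap. Dppa4 and Klf4 have the largest differences in both genotypes, 3.94 and 4.27 in Het and 2.75 and 3.22 in KO, and the bar of Pou5f1 in KO is close to 0.

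Dppa4 and Dppa2 were also set against each other within each library, a comparison chosen after their values were seen and therefore given with no test. The quantity is the log2 ratio of their reads, log2(CPM + 1) of Dppa4 minus that of Dppa2, which is read here between the groups of a table and not as an order of the 2 levels. In ZH oocytes it was -2.16 ± 0.16 in Het and -4.63 ± 0.28 in KO (SD, n = 4; difference -2.48). In CabZ oocytes it was -2.37 ± 0.36 in Het and -3.77 ± 0.47 in KO (difference -1.40). In both lines of oocytes Dppa4 lay wholly under and Dppa2 wholly above Het, so that the separate ratios restate the values above. In CabZ 2-cell embryos, where both genes fell, the ratio was 0.90 ± 0.14 in Het and -0.18 ± 0.33 in KO (SD, n = 4; difference -1.09). Per length of the gene, Dppa4 was above Dppa2 in both groups there, at 40.9 and 14.4 FPKM in Het and 8.80 and 6.32 FPKM in KO. In the injected embryos the ratio was -1.20 ± 0.51 with GFP (n = 4) and -1.95 ± 0.19 with Zscan4 OE (n = 3; difference -0.76). The Dppa2 gene model starts at 48303908 in the CabZ tables and at 48310477 in the others, so that its levels are not set against each other across tables.

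**Figure D5:**
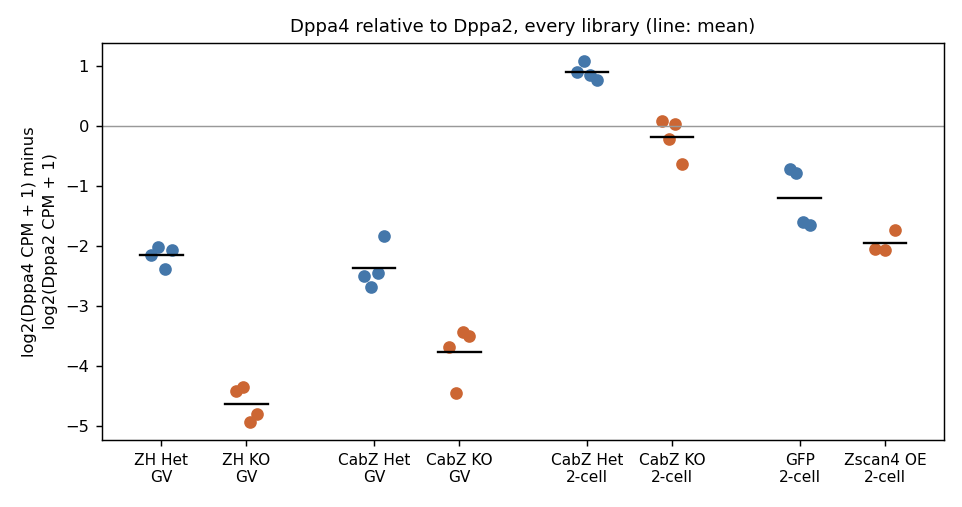
Log2(CPM + 1) of Dppa4 minus that of Dppa2 in every library of the 8 groups, with the mean as a line. In each of the 4 pairs of groups the orange points (KO or Zscan4 OE) lie under the blue points (Het or GFP), from -4.95 to -4.36 against -2.38 to -2.02 in the ZH line.

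Levels of different genes were compared per length, as FPKM over the gene span with introns. In ZH Het oocytes Klf17 was highest, at 39.8 ± 8.48 FPKM, followed by Dppa2 at 8.30 ± 0.517, Sall4 at 3.76 ± 0.704 and Pou5f1 at 2.89 ± 0.683 (SD, n = 4), of which Sall4 and Pou5f1 overlapped. In CabZ Het 2-cell embryos Dppa4 was highest, at 40.9 ± 8.08 FPKM, followed by Dppa2 at 14.4 ± 2.27, Klf17 at 12.1 ± 2.51 and Klf4 at 11.2 ± 2.89 FPKM, and each of the last 3 overlapped its neighbour in this order. Klf5, Sall4, Pou5f1 and Yap1 followed at 2.91, 2.34, 1.72 and 1.12 FPKM. Nr5a2 and Tead4, which have the longest spans of 117878 and 76536 bases, were the lowest in that group, at 0.415 ± 0.118 and 0.0739 ± 0.0443 FPKM (SD, n = 4).

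ATAC-seq peaks of CabZ GV oocytes were counted at the start sites. Within 500 bp of the start sites, 5 of 30 gene and library pairs had a peak in CabZ Het and 3 of 30 in CabZ KO. A peak at the start of some listed gene was present for 11.0, 22.1 and 39.4% of 19033 genes in Het A to C and for 16.7, 5.32 and 6.88% in KO A to C, from 43399, 67074 and 111327 peaks in Het and 46070, 19160 and 29600 in KO. The counts for the members lie within these shares, and no test was made.

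Pou5f1 was the gene with a peak most often, in Het A and C and in KO A and C. The peaks reached from -184 to 456 bp and from -73 to 1891 bp of the start in Het, with 4.33 and 4.98-fold enrichment, and from 189 to 2724 bp and from 226 to 598 bp in KO, with 7.02 and 4.92-fold enrichment over the genome background. Only the Het peaks thus reached into the promoter printed above. Sall4 had a peak in Het C and KO B, and Klf17 (-1744 to -352 bp) and Dppa4 (-933 to -367 bp) had 1 each in Het C, the library with the most peaks. Dppa2, Klf4, Klf5, Nr5a2, Tead4 and Yap1 had none in any library. Within the gene span of Tead4, 4 to 13 peak summits were found in Het libraries and 0 to 7 in KO.

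Other genes of the same pathways were read from 5 lists. In ZH GV oocytes 14 of 57 genes tested rose and 16 fell, in CabZ GV oocytes 5 of 56 rose and 1 fell, and in CabZ 2-cell embryos 20 of 83 rose and 13 fell. In the libraries labelled Zscan4 OE none of 61 passed (limma, 10 at an unadjusted p under 0.05), beside 16.5% of all genes at that unadjusted limit. The shares of all genes tested that rose and fell were 27.4 and 26.3% in ZH oocytes, 9.31 and 5.55% in CabZ oocytes and 25.5 and 19.2% in CabZ 2-cell embryos, and the counts over the 5 lists together were near these shares or, for genes that fell in CabZ oocytes, under them. The lists below are descriptions by count, to be read against the same shares.

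Among other Kruppel-like factors, 4 of 8 rose in ZH KO oocytes and 1 fell, beside 27.4 and 26.3% of all genes. Klf6 rose in both lines of KO oocytes, with log2 fold changes of 1.78 ± 0.18 and 1.87 ± 0.24, and in CabZ KO 2-cell embryos, with 1.88 ± 0.68 (limma adjusted p = 2.82e-05, 4.62e-04 and 0.0436). Klf9 rose from 0.0575 ± 0.0855 to 3.37 ± 2.75 CPM in ZH KO oocytes and fell from 23.3 ± 8.12 to 9.15 ± 3.09 CPM in CabZ KO 2-cell embryos (SD, n = 4), where 3 of 10 rose and 2 fell, beside 25.5 and 19.2% of all genes. In ZH oocytes Klf9 passed the filter only through its level in KO. Klf7 fell in ZH KO oocytes (-0.83) and rose in CabZ KO 2-cell embryos (0.95).

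In the Hippo pathway 3 of 19 genes rose and 6 fell in ZH KO oocytes, 1 of 19 fell in CabZ KO oocytes and 1 of 21 rose and 3 fell in 2-cell embryos, beside 26.3, 5.55 and 19.2% of all genes that fell. Wwtr1 (Taz), the paralogue of Yap1, rose from 7.37 ± 0.802 to 18.9 ± 1.25 CPM in ZH KO, while Yap1 fell. Sav1, the scaffold of the Hippo kinases, fell in both lines of oocytes, with log2 fold changes of -1.30 ± 0.22 and -0.81 ± 0.24 (limma adjusted p = 7.07e-04 and 0.0433), and passed the filter only through Het, where it lay at 2.62 and 2.18 CPM. In 2-cell embryos the paralogous kinases moved apart. Stk3 rose from 42.5 ± 5.48 to 157 ± 27.6 CPM and Stk4 fell from 41.3 ± 10.5 to 9.92 ± 4.90 CPM (SD, n = 4; limma adjusted p = 7.69e-04 and 0.00187), and Mob1a and Nf2 fell.

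Of trophectoderm and primitive endoderm regulators, 2 of 7 rose and 1 fell in ZH KO oocytes, 1 of 6 rose in CabZ KO oocytes and 5 of 14 rose and 2 fell in 2-cell embryos, beside 27.4, 9.31 and 25.5% of all genes that rose. Gata3, a trophectoderm factor known as a target of Tead4, rose in all 3, from 19.4 ± 5.90 to 46.4 ± 11.6 CPM in ZH, from 37.1 ± 3.74 to 70.8 ± 15.1 in CabZ oocytes and from 7.12 ± 4.70 to 73.3 ± 8.06 CPM in 2-cell embryos (SD, n = 4; limma adjusted p = 0.00184, 0.00799 and 4.07e-04). Id2 had the largest change among the 7 regulators tested in ZH KO oocytes, from 3.12 ± 0.789 to 90.7 ± 31.4 CPM (limma adjusted p = 9.05e-07). Gata6 and Pdgfra, both of the primitive endoderm, rose in 2-cell embryos, with log2 fold changes of 2.49 ± 0.51 and 1.71 ± 0.56.

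Of other pluripotency and germ-cell genes, 2 of 12 rose and 2 fell in ZH KO oocytes, 2 of 12 rose in CabZ KO oocytes and 5 of 24 rose and 4 fell in 2-cell embryos, beside 27.4, 9.31 and 25.5% of all genes that rose. Dppa5a rose in both lines of KO oocytes, from 405 ± 126 to 1056 ± 137 CPM and from 786 ± 144 to 1498 ± 313 CPM (SD, n = 4). In 2-cell embryos Fgf4, a target of Pou5f1 with Sox2, fell from 19.4 ± 12.2 to 2.19 ± 1.68 CPM (limma adjusted p = 0.00426) while Pou5f1 rose, Trim28 fell and Zfp57 and Stat3 rose. Of the nuclear receptors and co-factors listed beside Nr5a2, 3 of 11 rose and 6 fell in ZH KO oocytes, 1 of 13 rose in CabZ KO oocytes and 6 of 14 rose and 2 fell in 2-cell embryos, beside the same shares. Rarb, a retinoic acid receptor, rose in all 3, with log2 fold changes of 1.34, 0.68 and 2.20, and Nr2c2 fell most in 2-cell embryos, from 48.8 ± 21.7 to 4.52 ± 1.96 CPM (SD, n = 4).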

How the data were processed

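RNA-seq values of 31 libraries in 4 tables and ATAC-seq peak lists of 6 libraries were used, grouped as the labels give them. Per the methods and the submitters' processing notes, trimming was done with TrimGalore, alignment with STAR 2.5.3a against GRCm38, and gene values came from Partek Flow. In the ZH and Zscan4 OE tables the deposited values are FPKM over the whole gene span, with 0.01 or 0.001 added by the authors. The deposited CabZ values are a score in which the values show reads divided by the span in 2 steps and scaled to 1 total, with 0.01 added. Peaks were called by the authors on each library with MACS2 after Bowtie2 2.3, and were deposited with a fold enrichment ratio, -log10 p and -log10 q, and a score.

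The offset was subtracted and CPM (scaled reads per gene) were restored from the span, although the design had been written for FPKM. Steps in low values lay within 0.1 of whole reads for 84.4 to 89.3% of them. This gave 5813087 to 21854361 reads on genes per library. They cover counting error only and are not molecules, and reads of genes overlapping a member on the other strand (0.356 CPM or less on average) cannot be told apart. Genes with a mean of at least 1 CPM were tested per table with limma 3.58.1 (R 4.3.3) on log2(CPM + 1) over all genes with Benjamini-Hochberg adjustment. Fold changes are on that scale and understate changes of low genes. On simulated data 76 to 100% of genes changed 4-fold were recovered. Changes were put only into genes with a control mean over 4 on log2(CPM + 1), and both groups had the control spread. Recovery of lower genes, such as Klf4 in GV oocytes, was not simulated. Two-sided exact permutation tests served for single values (Python 3.11.15, numpy 2.4.6, pandas 2.3.3). Named were all members and, from each other list, up to 4 passing genes with the largest change. The members and lists were chosen with earlier results of these data known. The replicate numbers were not used to pair the libraries in the main fits. Alternatives were other scalings, filters, pseudocounts, units, a replicate block and leaving out each library.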

Additional observations from a re-analysis of the deposited data

Results flagged for a closer look

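In 6 of 67 sets of 4 libraries a single library of a regulator gene stood apart from the other 3 by more than Dixon's 95% limit, where chance gives about 1 in 20. Pou5f1 was 29.1 CPM in ZH KO replicate 2 and 5.58 to 7.24 CPM in the other ZH KO libraries. Sall4 was 40.9 CPM in CabZ KO 2-cell replicate 4 and 20.9 to 23.1 in the others, and 142 CPM in CabZ Het GV replicate 4 against 105 to 110 CPM. Dppa2 was 135 CPM in that same CabZ Het GV library and 149 to 150 CPM in the other 3. Tead4 was 5.82 CPM in CabZ KO 2-cell replicate 1 and 0.315 to 0.641 CPM in the others. Klf5 was 0.0623 CPM, a single read, in ZH KO replicate 2 and 0 in the other ZH KO libraries.

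Dppa2 moved in opposite directions in the 2 stages of the CabZ line. All 4 KO libraries were above all Het libraries in GV oocytes, with a log2 fold change of 0.27 that did not pass, and all 4 were below in 2-cell embryos, with a log2 fold change of -1.22 that did. Over all genes tested, Het and KO did not overlap, in either direction, for 20.4% in GV oocytes and 40.4% in 2-cell embryos. The difference between the stages was not tested.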

How the results depend on the processing

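Over all other scalings, filters, pseudocounts and units, no member of a KO or Zscan4 OE comparison changed direction. The count of members passing was 6 in ZH GV oocytes, 1 in CabZ GV oocytes, 8 in CabZ 2-cell embryos and 0 in Zscan4 OE. Of all genes tested 53.7, 14.9, 44.7 and 0.736% passed in these comparisons. The count of members moved to 3 in ZH GV with log2(FPKM + 1) and a mean of at least 1 FPKM, where 4 members were tested. Over all genes 3006 of 5792 passed with that setting. It also moved to 3 when a fold change above 2 was asked for in addition, beside 28.8% of all genes. In CabZ 2-cell the count of members was 6 with that FPKM setting, a pseudocount of 0.1, no filter, median scaling, quantile normalisation or a fold change above 2. Over all genes 4376 of 7798, 6997 of 17530, 8048 of 24303, 8094 of 17579, 7519 of 17530 and 7115 of 17530 passed in that order. The count was 7 at a pseudocount or a filter of 5 CPM, beside 7628 of 17530 and 6106 of 11151 genes. The members passing ranged over 5 to 7, 0 to 1, 4 to 7 and 0 to 1 in the 4 comparisons when 1 library was left out. The genes called out of all tested then ranged over 6174 to 7707, 1415 to 2048, 6350 to 7669 and 9 to 130. Leaving out 1 library turned the sign of 3 members that had not passed, with log2 fold changes of -0.11 to 0.15 for Yap1 and -0.071 to 0.12 for Sall4 in CabZ GV and of -0.59 to 0.0077 for Klf4 in Zscan4 OE. Deposited CabZ values left no member over the filter. Pathway genes passing were 5 of the 30 in ZH GV, 3 of 6 in CabZ GV and 9 of 33 in CabZ 2-cell with FPKM, where fewer genes are tested.

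The labels do not say whether replicate numbers pair the libraries. The deviations of libraries with 1 number correlated at -0.34 to 0.31 in ZH, -0.07 to 0.12 in CabZ GV, -0.05 to 0.07 in CabZ 2-cell and -0.12 to 0.06 in Zscan4 OE. These values cannot decide it, since libraries with different numbers were not compared. With the replicate block 6, 1, 5 and 0 members passed, beside 7054, 1904, 7092 and 3 of all genes tested. Between the stages Pou5f1 in CabZ KO went from -0.04 to 0.22 with median scaling, 0.014 with nuclear genes (added after seeing the data) and -0.18 to 0.17 when 1 library was left out, and the members counted were 7 to 8 in Het and 4 to 5 in KO when 1 library was left out. Start sites with a peak became 2 in Het and 1 in KO at -log10 q of at least 5, and 5 in KO within 1000 bp.

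Over all genes the median log2 fold change in ZH GV was -0.04, and 0.12 when scaled to the reads of the table or 0.14 with median scaling, with 51.0% of calls higher against 62.0 and 62.4%. In CabZ 2-cell it was 0.18, and 0.30 with median scaling or 0.00 with quantile normalisation. Genes called fell from 7359 to 3006 in ZH GV, from 2019 to 883 in CabZ GV and from 7836 to 4376 in CabZ 2-cell with the FPKM unit and filter, which were changed together and left 5792, 6339 and 7798 genes tested, and to 3946 and 820 in GV oocytes with a fold change above 2, and deposited CabZ values gave 122 and 565 calls. Zscan4 OE had 85 calls, but 16 at a pseudocount of 0.1, 45 without a filter, 134 with a trend and 3 with the block. Klf5 and Tead4 had 0 to 17 reads in the GV libraries that list them, and no difference passed there.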
